A study of Mus musculus with 20 samples.

Results

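The effect of Aroclor 1260 on the liver transcriptome was measured over both PCB 126 backgrounds of a study with 2 exposures, in all 20 of the 20 libraries of the series. The 10 livers that received Aroclor 1260 (HFD + Aroclor 1260, and HFD + Aroclor 1260 + PCB 126, 5 each) were compared with the 10 that did not (HFD control, and HFD + PCB 126, 5 each). PCB 126 entered the model as a second factor with 2 levels, so that the coefficient for Aroclor 1260 is its effect at a fixed PCB 126 status. Every animal was a male C57Bl/6J mouse on a high-fat diet (HFD, 42% of kcal from fat) that began at 8 weeks of age and lasted 12 weeks. After 2 weeks on the diet, at 10 weeks of age, each mouse received 1 oral gavage of corn oil alone, Aroclor 1260 at 20 mg/kg, PCB 126 at 20 µg/kg, or both in corn oil. The methods place the gavage 10 weeks before the end, whereas the sample labels give a treatment of 12 weeks. No group had a diet other than HFD, so an effect of Aroclor 1260 here is an effect in livers of HFD-fed mice.

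Aroclor 1260 is a commercial mixture of heavily chlorinated biphenyls, most of which do not have the flat shape that dioxin-like congeners such as PCB 126 share. Congeners of this kind are known as activators of the nuclear receptors CAR and PXR, which switch on cytochrome P450 genes and other genes of xenobiotic metabolism in the liver, whereas PCB 126 is a ligand of the aryl hydrocarbon receptor (AhR). Male mouse liver also holds a large program set by the pulses of growth hormone, which act through JAK2 and STAT5 and keep male-biased genes such as those for the major urinary proteins high.

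Total counts ranged from 21836506 to 36854887 per library, and the 10 libraries with Aroclor 1260 (mean 29.7M ± 4.40M, SD, n = 10) had a similar mean depth to the 10 without (29.4M ± 4.94M, SD, n = 10; two-sided exact permutation test within backgrounds, p = 0.890). The difference had opposite signs in the 2 backgrounds, at 4.62M without PCB 126 (exact p = 0.167) and -4.06M with it (exact p = 0.0794). Hepatocyte markers, among them Alb and Cyp2e1, summed to between 85620 and 120720 CPM (counts scaled to a fixed library size) in every library, as the liver label requires. HFD control replicate 4 stood apart: its skeletal muscle markers summed to 59.5 CPM, against 0.385 to 1.46 CPM in the other 19 libraries. All 5 muscle markers were called lower with Aroclor 1260, and none of the 4 that could be tested (adjusted p from 0.0908 to 0.475) when that library was left out. None of 12 cell types differed in its summed markers at an adjusted p under 0.05 (exact permutation tests; skeletal muscle, adjusted p = 0.0918). The lowest, the pancreatic acinar list (adjusted p = 0.0714), was in effect 1 gene, Cela1, at a mean of 14.5 CPM against at most 0.0977 CPM for its other markers.

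At an adjusted p under 0.05, the expression of 3644 of 15522 genes tested (23.5%) differed with Aroclor 1260, 1812 of them higher (11.7%) and 1832 lower (11.8%). A log2 fold change (log2FC) beyond 0.34 in either direction was reached by 2418 of these genes. The changes were mostly small, with a median absolute log2FC of 0.24 over all genes tested. The 10 livers with Aroclor 1260 lay wholly above the 10 without for 3 genes (0.0193%), and wholly below for none. Within a background, the 5 exposed mice did not overlap the 5 others for 457 genes (2.94%) without and 1537 genes (9.9%) with PCB 126. These 3, named after their values were seen, were Acer3, an alkaline ceramidase (log2FC 0.54), Cdc42se2, a small effector of CDC42 (0.22), and Naalad2, a peptidase (0.71). The following paragraphs give the genes with the largest changes by role, and then transcript GC content. Most of the calls were lost when the libraries were corrected for it.

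Of 44 tested targets of CAR and PXR, genes of xenobiotic metabolism, 18 were called higher with Aroclor 1260 (40.9%, against 11.7% of all genes tested) and none lower, with a median log2FC of 0.33 against 0.02 over all genes tested. Cyp2b10, the classical CAR target, was at 1.43 to 30.7 CPM (median 12.2) in the livers with Aroclor 1260 and at 0.351 to 9.99 CPM (median 3.82) in those without. The highest livers belonged to the exposed groups, but the ranges overlapped widely (log2FC 1.55 ± 0.52, SE; adjusted p = 0.0382). Cyp3a11, the main PXR target, was far more abundant and rose less, from a median of 2659 CPM (1893 to 3394) to 4224 CPM (1749 to 5866; log2FC 0.58 ± 0.17, SE; adjusted p = 0.0193). Its log2FC was 0.35 without and 0.81 with PCB 126. Abcb1a, which encodes the P-glycoprotein efflux pump, increased with a log2FC of 0.90 (adjusted p = 0.0113). Smaller increases were seen for Cyp2c29 (0.68), Ugt1a9 (0.71), a glucuronosyltransferase, and Slco1a4 (0.55), an uptake carrier. Other inducible genes did not pass the test: Cyp2c55 had a log2FC of 0.90 (adjusted p = 0.0696), and the glutathione transferase Gstm3 had 0.57 (adjusted p = 0.349). The receptors themselves, CAR (Nr1i3), PXR (Nr1i2) and their partner Rxra, did not pass the test, with log2FC from -0.28 to -0.06. When the libraries were corrected for GC content, none of the 44 targets was called and the median log2FC was 0.14. Cyp2b10 kept its size (log2FC 1.56, adjusted p = 0.0941), whereas Cyp3a11 fell to a log2FC of 0.24 (adjusted p = 0.444). Cyp2b10 was called in 10 of the 20 fits that each left out 1 library.

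The 8 largest called decreases among genes averaging 1 CPM or more were Moxd1, Mup9, Ugt2b38, Mup8, Selenbp2, Eif4ebp3, Cish and Mup18. Moxd1, a monooxygenase-like gene, was at 0 to 1.36 CPM (median 0.197) in the livers with Aroclor 1260, whereas those without ranged from 0.0261 to 60.0 CPM (median 4.80). The spread came from the unexposed mice, of which only some were high (log2FC -5.10 ± 0.98, SE; adjusted p = 0.00828). Mup18 was at 26.8 to 126 CPM (median 72.9) with and at 26.0 to 419 CPM (median 209) without Aroclor 1260 (log2FC -1.54 ± 0.42, SE; adjusted p = 0.0162). The major urinary proteins Mup9 (log2FC -2.10, adjusted p = 0.0169) and Mup8 (log2FC -1.68, adjusted p = 0.0235) fell as well. These genes form a family of near-identical copies on chromosome 4, so that the division of reads among its members is uncertain. Selenbp2, a selenium-binding protein gene, decreased from a median of 142 CPM (22.9 to 415) to 43.0 CPM (15.8 to 118; log2FC -1.64 ± 0.47, SE; adjusted p = 0.0193). Ugt2b38, another glucuronosyltransferase, had a log2FC of -1.68 (adjusted p = 0.0336). Selenbp2 (log2FC -1.51, adjusted p = 0.0765) and Ugt2b38 (-2.01, adjusted p = 0.0570) were not called after GC correction. The call of Ugt2b38 was also lost without HFD control replicate 4 (log2FC -1.29, adjusted p = 0.0720). In Moxd1, the 3 Mup genes, Selenbp2 and Ugt2b38, some unexposed mice were as low as the exposed ones, and the exposed mice lacked the high values. The lowest unexposed mice were the same in all of these genes, namely HFD control replicates 1 and 2 and HFD + PCB 126 replicate 1. Selenbp2, for example, was at 22.9, 39.6 and 32.0 CPM in them and at 114 CPM or more in the other unexposed mice. These genes are therefore not independent observations.

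**Figure D1:**
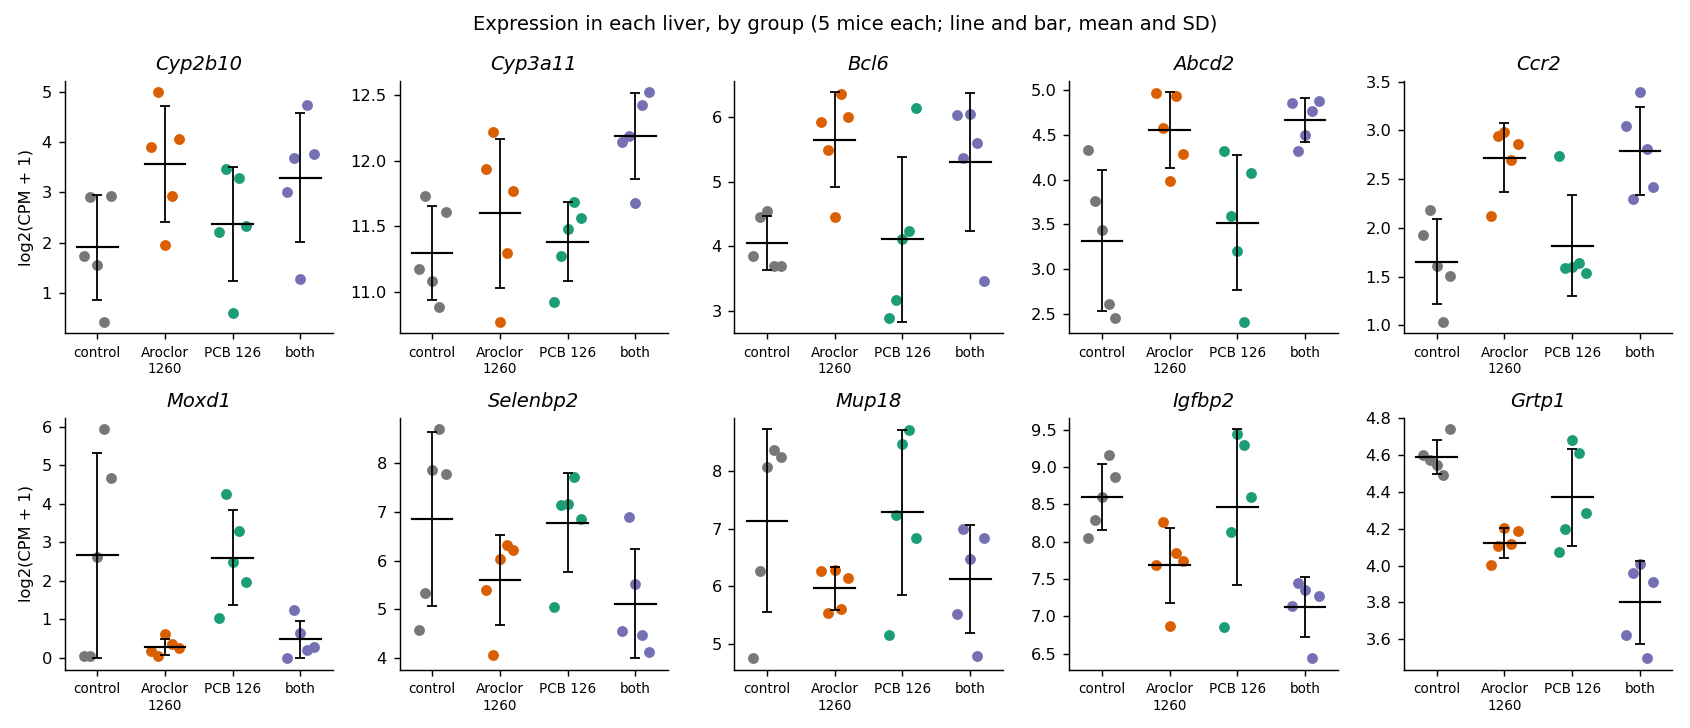
Expression of 10 genes in each of the 20 livers on a log2(CPM + 1) scale, with 5 mice per group and the mean and SD as line and bar. Livers with Aroclor 1260 (second and last group of each panel) were higher for the genes of the upper row and lower for those of the lower row, and most groups overlapped, as for Cyp2b10 (1.43 to 30.7 CPM with, 0.351 to 9.99 CPM without) and Moxd1 (up to 1.36 CPM with, up to 60.0 CPM without).

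Growth hormone signalling was examined through a list of its components and targets. Bcl6, a transcriptional repressor that binds many STAT5 sites in liver, rose from a median of 14.9 CPM (6.41 to 69.7) to 53.8 CPM (10.04 to 81.3; log2FC 1.34 ± 0.39, SE; adjusted p = 0.0199), and its annotated span overlaps Gm37419. Bcl6 was called in all 20 of the fits that left out 1 library, but not after GC correction (log2FC 1.35, adjusted p = 0.0615), where it passed in 2 of the 20. Cish, a feedback inhibitor induced by STAT5, fell from a median of 10.5 CPM (3.27 to 46.7) to 3.33 CPM (1.49 to 39.1; log2FC -1.55 ± 0.56, SE; adjusted p = 0.0484). HFD + Aroclor 1260 replicate 3 held the value of 39.1 CPM, and Cish was called in only 6 of the 20 fits and not after GC correction (log2FC -1.34, adjusted p = 0.154). Of the 24 genes of the growth hormone and sex-bias list, 3 were called higher (Bcl6, Jak2 and the receptor Ghr) and 3 lower (Cish, Igfals and Cyp2d9), a share of 25% that is near the 23.5% of all genes tested. The list had a median log2FC of -0.15 against 0.02 over all genes tested. Igfals, which encodes the acid-labile subunit of the circulating IGF complex, had a log2FC of -0.64 (adjusted p = 0.0125). The male-biased genes Hsd3b5 (log2FC -0.96), Cyp7b1 (-0.81) and Elovl3 (-0.38) were lower but did not pass the test, and neither did the female-biased Cyp2b9 (1.06), Cyp2b13 (1.12) and Sult3a1 (1.08). Only 8 of the 24 genes of the list had a log2FC above 0. These 8 include Bcl6, Jak2, Ghr and Igf1, so most other female-biased genes of the list were not higher. After GC correction the median of the list was -0.35, further from 0. Mup21 (log2FC -0.88, adjusted p = 0.0329) and Igf1 (-0.39, adjusted p = 0.0377) were then called lower, having been at -0.54 and 0.02 before. Igfbp2, a binding protein of insulin-like growth factors, fell from 114 to 693 CPM (median 386) without to 85.6 to 307 CPM (median 168) with Aroclor 1260 (log2FC -1.23 ± 0.26, SE; adjusted p = 0.00828), and to a log2FC of -0.74 after GC correction (adjusted p = 0.0779). Igfbp3, of the same family, increased in both fits (log2FC 0.53, adjusted p = 0.0152; with GC correction 0.60, adjusted p = 0.0381). Eif4ebp3, a repressor of cap-dependent translation, decreased in both fits as well (log2FC -1.55, adjusted p = 0.00951, and -1.46, adjusted p = 0.0381).

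The 8 largest called increases were Cyp2b10, Bcl6, Ccr2, Zfp979, Mmp12, Abcd2, Fpr2 and Naaladl2. Ccr2, the receptor that recruits monocytes, was at 3.36 to 9.48 CPM (median 6.12) with and at 1.05 to 5.67 CPM (median 2.04) without Aroclor 1260 (log2FC 1.25 ± 0.24, SE; adjusted p = 0.00828). The ranges overlapped through HFD + PCB 126 replicate 1 (5.67 CPM, the other 4 mice of its group at 1.90 to 2.12 CPM) and HFD control replicate 2 (3.54 CPM). Mmp12, the macrophage elastase, had a log2FC of 1.16 (adjusted p = 0.0293), and Fpr2, a formyl peptide receptor, had 1.10 (adjusted p = 0.0102). After GC correction none of the 3 was called, with a log2FC of 0.90 for Ccr2 (adjusted p = 0.0551), 0.88 for Mmp12 (adjusted p = 0.160) and 0.88 for Fpr2 (adjusted p = 0.0663). Mmp12 and Fpr2 overlap the annotated spans of Mmp1b and Fpr3. The summed level of 8 markers of Kupffer cells and macrophages was 278 to 555 CPM with and 138 to 489 CPM without Aroclor 1260. Its difference of 63.5 CPM did not pass the exact permutation test (two-sided p = 0.133, adjusted p = 0.228 over the cell types). This sum rests largely on Cd5l (mean 117 CPM) and Clec4f (90.2 CPM). The mean log2 CPM of the same markers differed by 0.40 (exact permutation p = 0.0296), and its adjusted p of 0.0913 did not pass either. Cd68, a pan-macrophage marker, had a log2FC of 0.23 (adjusted p = 0.328). In bulk liver, more cells of a type and more RNA per cell cannot be told apart. Of 25 genes of stellate cells and fibrosis, 9 were called higher and 1, Col4a2, lower, with a median log2FC of 0.31. Of all genes tested, 11.7% were called higher and 11.8% lower. The collagen genes Col5a2 (log2FC 0.74, adjusted p = 0.00926), Col3a1 (0.66) and Col1a2 (0.57) and the proteoglycan genes Lum (0.66) and Dcn (0.48) were among the 9. Lox, which crosslinks collagen, had the largest of these increases (1.08) at a low level, with medians of 0.601 and 0.266 CPM. It was called in only 6 of the 20 fits that each left out 1 library. After GC correction the median of the list was 0.35, and Col5a2 (0.70, adjusted p = 0.0377) and Col1a2 (0.77, adjusted p = 0.0416) were called. The summed stellate cell markers were 336 to 471 CPM with and 222 to 421 CPM without Aroclor 1260 (exact permutation p = 0.0452, adjusted p = 0.150).

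Many nuclear genes of oxidative phosphorylation fell. Of 71 tested genes for subunits of the respiratory complexes and ATP synthase, 36 were called lower and 1, Ndufs1, higher, so that 52.1% were called against 23.5% of all genes tested. The median log2FC was -0.26, and it was -0.22 without and -0.31 with PCB 126, although it was 0.02 when the libraries' GC slopes entered the model as a covariate. Ndufs7, a subunit of complex I, was at 8.98 to 29.4 CPM (median 21.7) with and at 23.0 to 57.5 CPM (median 38.2) without Aroclor 1260 (log2FC -0.94 ± 0.19, SE; adjusted p = 0.00828). Ndufb7 (log2FC -0.91), Uqcr11 (-0.82), a subunit of complex III, and Atp5d (-0.70), of ATP synthase, fell as well. GC correction left the median at -0.23 but reduced the calls to 6 lower and none higher. These 6 were Ndufs7 (-0.55), Cox7c (-0.85), Atp5g1 (-0.63), Uqcrq (-0.57), Ndufb3 (-0.53) and Atp5j2 (-0.43). For all genes tested, GC correction reduced the calls from 3644 to 362.

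Lists of lipid and bile acid metabolism had called shares of 20% to 35%, on both sides of the 23.5% of all genes tested. Abcd2, a peroxisomal transporter of fatty acids, rose from 4.32 to 19.1 CPM (median 10.4) without to 14.8 to 30.3 CPM (median 24.5) with Aroclor 1260 (log2FC 1.13 ± 0.25, SE; adjusted p = 0.00913). Of 28 genes of lipogenesis and lipid storage, 1 was called higher, the fatty acid uptake protein Cd36 (log2FC 0.77, adjusted p = 0.00828), and 5 lower, among them Plin5 (-0.48), a lipid droplet protein, and Nr1h3 (-0.44), the receptor LXR alpha. Of 30 genes of PPAR alpha and fatty acid oxidation, 1 was called higher, Acot4 (0.64), and 5 lower, among them Angptl4 (-0.48). Of 20 genes of bile acid synthesis and transport, 3 were called higher, among them Akr1d1 (0.69), and 4 lower, among them Cyp8b1 (-0.51), the sterol 12-alpha-hydroxylase. Of 26 genes of cholesterol synthesis and uptake, 4 were called higher, among them Hmgcs1 (0.36), and 5 lower, among them the mevalonate kinase Mvk (-0.65). The medians of these 4 lists were -0.14, -0.01, -0.0027 and 0.06 on the log2 scale. Of 22 genes of glucose and insulin signalling, 8 were called higher, among them the glucose transporter Slc2a2 (0.53) and the insulin receptor Insr (0.31), and Igfbp2 lower (40.9% called). After GC correction, 1 gene of these 5 lists was called lower, the racemase Amacr, and 1 higher, Igfbp3. The log2FC of Abcd2 was then 0.82 (adjusted p = 0.0699), that of Cd36 0.38, of Plin5 -0.13, of Akr1d1 0.37, of Hmgcs1 0.12 and of Slc2a2 0.25.

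In AhR and EGF receptor signalling, the receptors did not pass the test. Of 13 genes of the AhR list, 1 was called higher, Ugt1a6b (log2FC 0.47), and none lower (7.69%, against 23.5% of all genes tested). Ahr itself had a log2FC of 0.50 (adjusted p = 0.0532). Cyp1a1, the most inducible AhR target, had an additive log2FC of -3.26 (adjusted p = 0.0523) that describes neither background, since its log2FC was 0.53 without and -5.87 with PCB 126. With PCB 126 alone it ranged from 4.09 to 314 CPM, and with both exposures from 0.792 to 2.62 CPM. The difference between the backgrounds did not pass edgeR's test (adjusted p = 0.284), while DESeq2 called it (log2 difference -6.51, adjusted p = 0.00207). Cyp1a2, another AhR target, had an additive log2FC of -0.52 (adjusted p = 0.0579), with group means of 387 CPM in HFD control, 385 CPM with Aroclor 1260, 1590 CPM with PCB 126 and 775 CPM with both. Egfr had a log2FC of -0.63 (adjusted p = 0.230), with 115 to 621 CPM (median 207) with and 57.7 to 753 CPM (median 398) without Aroclor 1260. Of the 30 genes of the EGF receptor list, 7 were called higher, among them the ligand Btc (0.56), and 2 lower, Map2k2 (-0.67) and Hras (-0.35). This share of 30% is near the 23.5% of all genes tested. None of the 30 was called after GC correction.

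RNA modification genes, the subject of the study, showed small changes in both directions. Of 29 writers, 4 were called higher and 5 lower, a share of 31% that is near the 23.5% of all genes tested. The decreases were led by the tRNA methyltransferase Trmt1 (log2FC -0.52, adjusted p = 0.00828) and the rRNA methyltransferase Bud23 (-0.48, adjusted p = 0.00828), followed by the pseudouridine synthase Pus1 (-0.44). The highest increase was Pus10 (0.33), also a pseudouridine synthase. After GC correction no writer was called higher and 4 were called lower: Trmt1 (-0.32, adjusted p = 0.0329), Bud23 (-0.25, adjusted p = 0.0401), Ftsj1 (-0.29) and Mettl16 (-0.24, from -0.03 before). Of the 4 erasers, Alkbh1 (log2FC -0.39, adjusted p = 0.0373) and Alkbh3 (-0.24, adjusted p = 0.0474) fell, whereas Fto and Alkbh5 did not pass the test. This is 50% of a list of only 4 genes, against 23.5% of all genes tested. Alkbh1 was at 4.75 to 9.27 CPM (median 6.85) with and 6.25 to 12.8 CPM (median 8.69) without Aroclor 1260, its annotated span overlaps Slirp, and its log2FC was -0.58 after GC correction (adjusted p = 0.0377). It lost its call without HFD control replicate 4 (log2FC -0.33, adjusted p = 0.0535). Of 14 genes listed as readers, 3 were called higher and 2 lower (35.7%, against 23.5% of all genes tested). Fmr1, an RNA-binding protein that recognises m6A, rose from 5.42 to 18.6 CPM (median 11.2) to 11.9 to 23.7 CPM (median 19.5; log2FC 0.72 ± 0.17, SE; adjusted p = 0.0102), but not after GC correction (0.38, adjusted p = 0.0928). Ythdf3, a cytoplasmic m6A reader, had a log2FC of 0.45. Igfbp2 and Igfbp3, which the study lists as readers and which moved in opposite directions, encode secreted binding proteins of insulin-like growth factors.

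The other lists held called shares from 0% to 25.9%, against 23.5% of all genes tested. Of 24 genes of the NRF2 antioxidant response, 2 were called higher, both subunits of glutamate-cysteine ligase (Gclc, log2FC 0.41, and Gclm, 0.30), and 3 lower, among them Osgin1 (-1.02). Of 27 interferon-stimulated genes, 2 were called higher, Gbp2 (0.96) and Ifit2 (0.55), and 5 lower, among them Isg15 (-0.60). Of 17 cytokines and chemokines, 1 was called higher, the T cell attractant Cxcl9 (0.94). Of 20 clock genes, 3 were called higher, among them Rora (0.46) and Nr1d2 (0.40), and 1 lower, the repressor Nr1d1 (-0.51). None of 21 acute phase genes was called by edgeR (1 at an unadjusted p under 0.05). Of 23 cell cycle genes, Ccne2 was called higher (0.71) and Cdk4 lower (-0.28). Of 32 chaperone and ER stress genes, 2 were called higher, Dnajb9 (0.52) and Atf6 (0.27), and 1 lower, Hsp90ab1 (-0.33). Only 8 of the 32 had a log2FC above 0, and the median of the list was -0.22 (-0.28 after GC correction). Numbered zinc finger genes, whose transcripts are mostly poor in GC, had 60 of 337 called higher, among them Zfp979 (1.18), and 23 lower, among them Zfp653 (-0.90) and Zfp771 (-0.87), with a median log2FC of 0.11 that was -0.06 after GC correction.

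**Figure D2:**
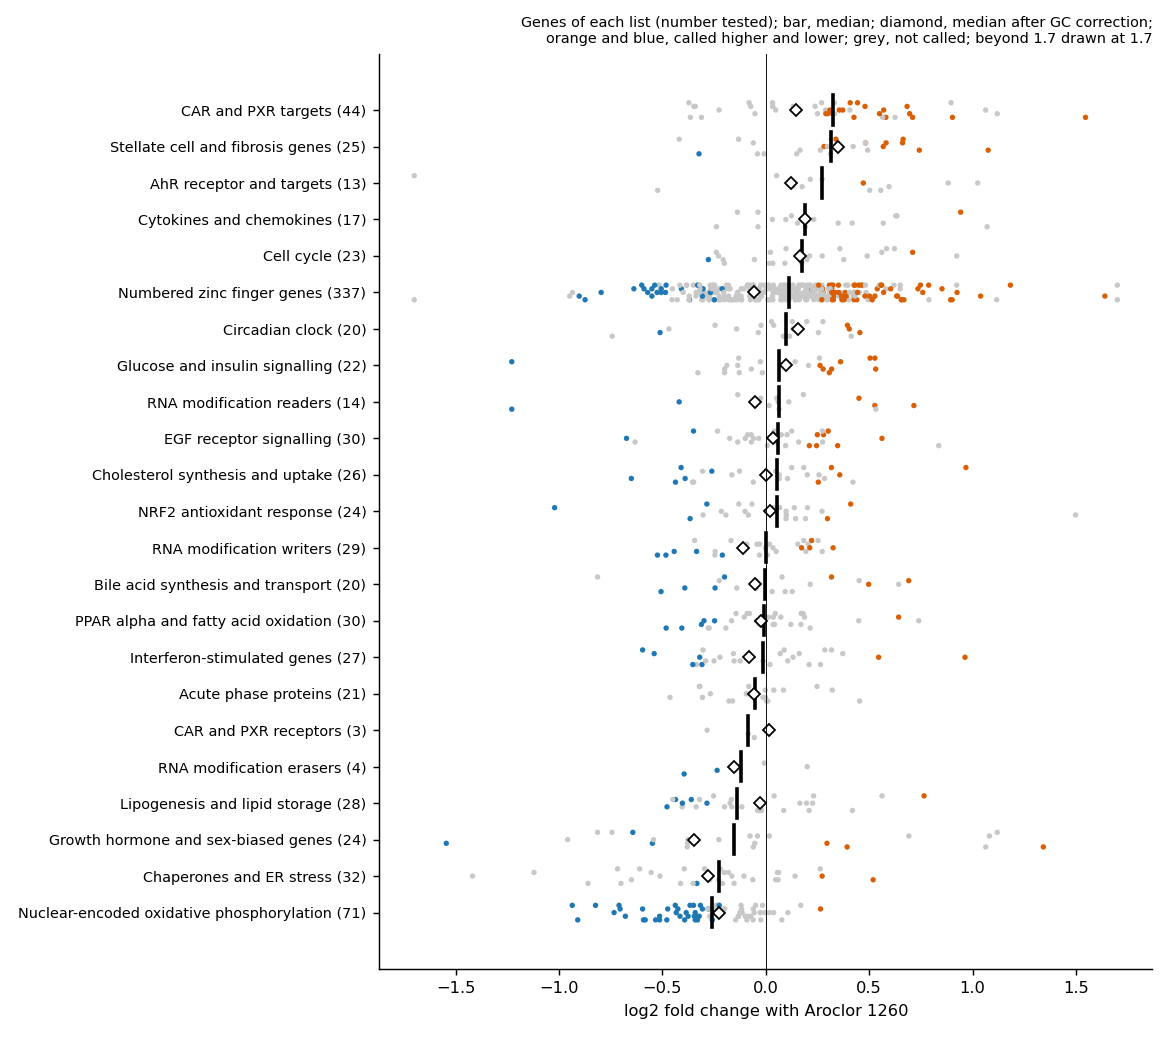
Log2FC with Aroclor 1260 (horizontal axis) of every tested gene of 23 gene lists, ordered by the median of the list, with the number of genes tested in brackets. The CAR and PXR targets (median 0.33) and the nuclear genes of oxidative phosphorylation (median -0.26) lay at the ends, and the open diamonds show that the median of the CAR and PXR targets fell to 0.14 after GC correction while that of oxidative phosphorylation moved to -0.23.

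The effect of Aroclor 1260 on a gene followed the GC content of its transcript. Over the 11341 genes that averaged 1 CPM or more and had a known GC content, the Pearson correlation of log2FC with GC was -0.69. The trend was not particular to Aroclor 1260, since the PCB 126 coefficient of the same model had a correlation of -0.62. These are correlations across genes that share the same 20 libraries, so they are given as a description. In the decile of genes with the lowest GC (up to 41.8%), the median log2FC was 0.32, and 57.1% of the genes were called higher and 0.441% lower. In the decile with the highest GC (57.9% and above), the median was -0.40, and none was called higher and 54.9% lower. The trend was present in both backgrounds, with medians from 0.27 to -0.25 without and from 0.38 to -0.58 with PCB 126. The following stretches of coding sequence are shown for the 3 called genes named by rank or by preset choice with the lowest GC that rose and the 3 with the highest GC that fell. Each is the first run of 30 coding bases, in frame and within 1 exon, whose GC share is nearest to that of the whole transcript, read 5′ to 3′ on the coding strand with G and C in capitals (GENCODE M21 transcripts, build GRCm38).
Zfp979: aGaaGaaCaaCtaaaaGaatGaGtGCttCt
Naaladl2: tCaGGaCattCaCaGtaCttaGaCaatGat
Fmr1: aGaCaGattCCattCCatGatGtGaGattC
Igfbp2: CtGCtCCtGCCGtCGttGCtCttGCtGCtG
Cish: ttaCCCaCtGGGGCattCCCaGaGGaaGtG
Selenbp2: taCttGCCCtGCatttaCCGGaaCaCaGGC

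The first 3 genes rose. Zfp979 (chr4:147618435-147618464, minus strand), a zinc finger gene of a cluster of similar genes, has a transcript GC of 34.6% and a log2FC of 1.18. Naaladl2 (chr3:24551977-24552006, minus strand), a peptidase-like gene, has 36.1% and 1.09. Fmr1 (chrX:68691514-68691543, plus strand) has 39.2% and 0.72. The last 3 fell, namely Igfbp2 (chr1:72824613-72824642, plus strand) at 62.1% GC, Cish (chr9:107300012-107300041, plus strand) at 56.4% and Selenbp2 (chr3:94697012-94697041, plus strand) at 54.6%. After GC correction the log2FC of Zfp979 was 0.76 and that of Naaladl2 was 0.71.

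**Figure D3:**
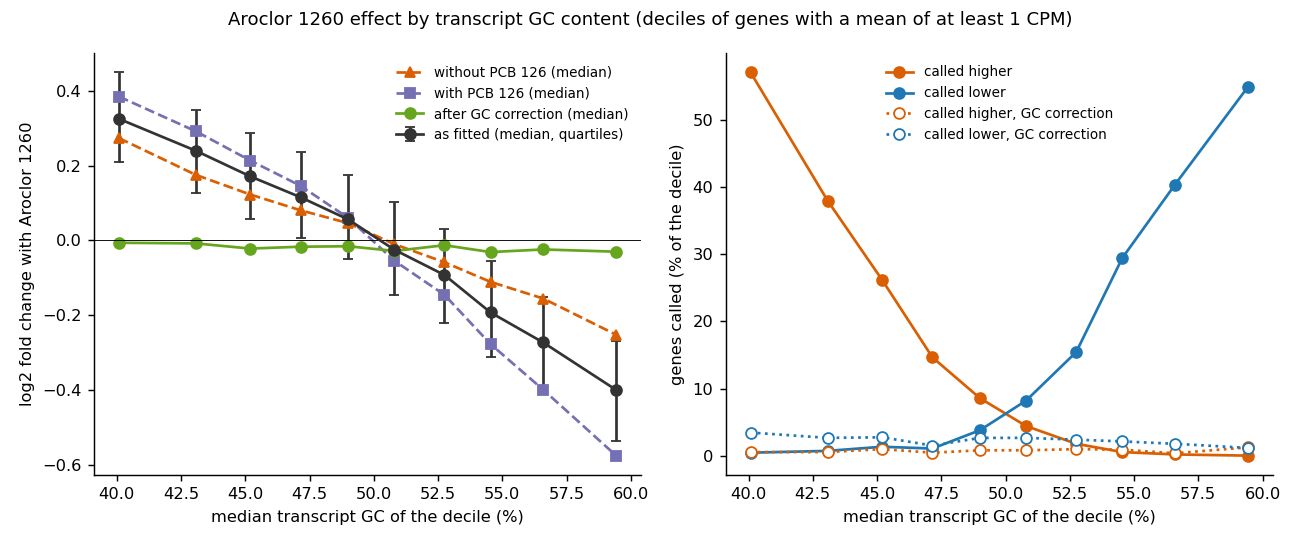
Left, log2FC with Aroclor 1260 over deciles of the genes ordered by transcript GC content (median and quartiles), with the medians in each background and after GC correction; right, the percentage of genes in each decile called higher or lower. The medians ran from 0.32 at low GC to -0.40 at high GC and stayed near 0 after correction, when at most 3.44% of a decile was called in either direction.

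The same trend was seen in whole libraries. In each library, log2 expression relative to the average of all 20 libraries was regressed, across genes, on transcript GC. In HFD control, the slopes were 0.40, 0.29, 0.18, 0.08 and 0.17 per 10 points of GC in replicates 1 to 5. With Aroclor 1260 they were -0.09, -0.01, 0.10, 0.00 and -0.01. The exposed mice were thus lower, apart from replicate 3, which lay above HFD control replicate 4. With PCB 126 the slopes were -0.09, -0.03, 0.34, 0.23 and 0.05, and with both exposures they were -0.24, -0.32, -0.12, -0.53 and -0.42. All 5 mice with both exposures lay below the 5 with PCB 126 alone. The mean difference with Aroclor 1260 was -0.32 per 10 points of GC, or -0.23 without (exact p = 0.0159) and -0.42 with PCB 126 (exact p = 0.00794, the smallest this design gives). Over both backgrounds, the two-sided exact permutation test gave p = 9.45e-05 (adjusted p = 0.000378 over 4 library measures). The slope on transcript length differed too, by 0.10 per doubling (exact p = 0.00835, adjusted p = 0.0167). This difference was 0.07 without (exact p = 0.238) and 0.14 with PCB 126 (exact p = 0.00794). The share of counts in the 50 most abundant genes did not pass (exact p = 0.636). Since the GC slope moved with the exposure, the 2 cannot be told apart by the design.

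**Figure D4:**
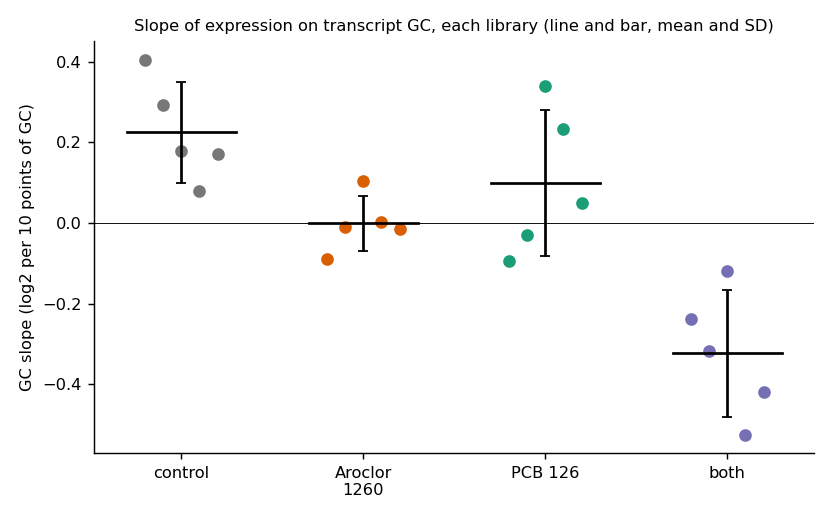
Slope of log2 expression on transcript GC content, per 10 points of GC, in each library (points), with the mean and SD of the 5 mice of a group. The means were 0.23 in HFD control, 0.00 with Aroclor 1260, 0.10 with PCB 126 and -0.32 with both exposures.

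When the GC trend of each library was removed, 362 genes (2.33%) were called, 93 higher (0.599%) and 269 lower (1.73%). Of these, 254 had been called in the same direction before the correction (70 higher and 184 lower) and 2 in the opposite direction. This set rested on single libraries more than the uncorrected calls did. Leaving out 1 library at a time gave 0 to 991 genes, against 2284 to 4731 without the correction. The count was 0 without HFD + Aroclor 1260 replicate 4 or 5, HFD + PCB 126 replicate 4, or HFD + Aroclor 1260 + PCB 126 replicate 1, 4 or 5, with 2699 to 3312 genes at an unadjusted p under 0.05. It was 2 without HFD + PCB 126 replicate 3. DESeq2 with the same correction called 1307 genes. In edgeR, an unadjusted p under 0.05 was reached by 3314 genes with the correction and by 5842 without it. A call could thus be lost with little change in p, as for Bcl6 (edgeR, unadjusted p = 0.00241 without and 0.00242 with the correction). After the correction, 390 of the 3644 genes called before it had a log2FC of the other sign.

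The genes called in both fits with the smallest p after correction had narrow ranges. Kctd12, an auxiliary subunit of GABA-B receptors, was at 9.94 to 17.9 CPM (median 14.8) with and at 4.90 to 13.8 CPM (median 6.51) without Aroclor 1260 (log2FC 0.91, and 0.74 after correction, adjusted p = 0.0329). Fzd1, a Wnt receptor, and Notch2 are GC-rich and rose against the general trend, so that their log2FC grew from 0.40 to 0.61 and from 0.31 to 0.43 with the correction. Otud1, a deubiquitinase, also grew from 0.51 to 0.70, and the kinase gene Prkx went from 0.55 to 0.38. In these 4 genes the exposed livers were mostly higher, as for Notch2, at 31.6 to 39.9 CPM with and 22.2 to 34.9 CPM without. Grtp1, which encodes a protein with a TBC domain, was at 10.3 to 17.4 CPM (median 15.1) with and at 15.9 to 25.7 CPM (median 22.6) without Aroclor 1260 (log2FC -0.55, and -0.51 after correction, adjusted p = 0.0329). Its span overlaps Lamp1. Sra1, a gene for a steroid receptor RNA activator (-0.31 and -0.48), Rbm8a, of the exon junction complex (-0.26 and -0.48), Cox16, an assembly factor of cytochrome c oxidase (-0.47 and -0.90), and Mmaa, of cobalamin metabolism (-0.20 and -0.49), fell as well, and their decrease was larger after correction. Cox16 overlaps 3 other annotated genes. All 10 genes passed the uncorrected test in at least 19 of the 20 fits without 1 library, and the corrected test in 12 to 14 of them. The 10 were chosen by their p in these same 20 libraries, so their narrow ranges and kept calls are a description. Moxd1 (log2FC -5.15, adjusted p = 0.0329), Mup9 (-2.42, adjusted p = 0.0416), Mup18 (-1.83, adjusted p = 0.0377) and Mup8 (-1.96, adjusted p = 0.0464) also kept their calls after correction, and they did so in 13 (Moxd1), 8 (Mup9), 10 (Mup18) and 5 (Mup8) of the 20 fits.

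The 2 backgrounds were also tested apart. With PCB 126, 2589 genes were called (16.7%), 875 higher (5.64%) and 1714 lower (11%), and none after GC correction (3014 at an unadjusted p under 0.05). The 2589 fell to 4 without HFD + PCB 126 replicate 3, to 288 without replicate 4 of that group, and to 954 and 269 without HFD + Aroclor 1260 + PCB 126 replicates 4 and 5. Without PCB 126, edgeR called none, with 2677 genes at an unadjusted p under 0.05, and DESeq2 called 143. The difference between the backgrounds was called for no gene by edgeR (1846 at an unadjusted p under 0.05) and for Cyp1a1 alone by DESeq2. No mouse is shared between the 2 comparisons. Over the 11342 genes that averaged 1 CPM or more, their log2FC had the same sign in 74.7% (Spearman's rho 0.59), and in 65.0% after GC correction (rho 0.36). Without HFD control replicate 4, the corrected share was 68.6% (rho 0.47). The log2FC of Cyp2b10 was 1.97 without and 1.13 with PCB 126, that of Bcl6 1.74 and 0.95, and that of Abcd2 1.18 and 1.08. Mup18 had -1.66 and -1.42, and Selenbp2 had -1.76 and -1.52. These 5 genes were chosen to have 1 sign in both backgrounds, so their shared direction is a description. The adjusted p of the difference ran from 0.711 to 0.963.

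**Figure D5:**
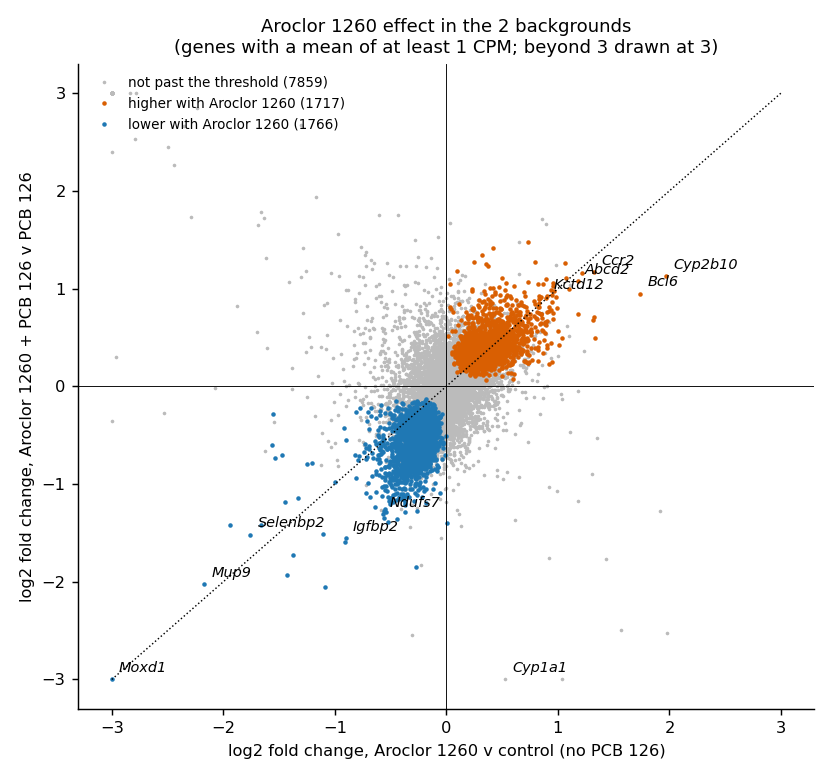
Log2FC of Aroclor 1260 without PCB 126 (horizontal axis) against log2FC with PCB 126 (vertical axis) for 11342 genes with a mean of at least 1 CPM, values beyond 3 being drawn at 3. Genes called over both backgrounds (1717 higher and 1766 lower among those drawn) lie along the dotted line of equal effects, which the additive model favours, and Cyp1a1 lies far from it (0.53 and -5.87).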

How the data were processed

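Liver polyA RNA of 20 mice was sequenced as stranded libraries in 2 Illumina NextSeq runs. The authors aligned reads with STAR 2.6 to the mouse genome GRCm38 and deposited raw gene counts made with HTSeq 0.10.0 (FastQC 0.10.1 for quality). The annotation release and strand setting are not given in the sources used here, so reads of overlapping genes, such as Trmt1 and Nacc1, Bud23 and Dnajc30, or the Ugt1a genes, cannot be told apart. Cytosolic ribosomal protein genes and mitochondrially encoded genes were not analysed here, and 1 gene was left out of the AhR list and is not reported here.

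Groups followed the sample titles. 1 replicate of HFD + PCB 126 carries differing numbers in its labels, and its title was used. Each sample was taken as 1 mouse, and p-values measure the spread between these samples.

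Genes with at least 10 counts in total (15522 of 21780) were tested in R 4.3.3 with edgeR 4.0.16 (TMM scaling, quasi-likelihood test, Benjamini-Hochberg adjustment over all genes tested, 17 residual degrees of freedom), with Aroclor 1260 and PCB 126 as additive factors. A model with 4 groups gave the effect in each background and their difference (16 residual degrees of freedom). Every adjusted p of a gene is from edgeR unless DESeq2 (1.42.0) is named. A gene is called at an adjusted p under 0.05. GC correction fitted, for each library, a natural spline with 6 degrees of freedom of the log2 deviation on transcript GC over genes averaging 1 CPM or more, and entered it as an offset. Transcript GC and symbols came from GENCODE M21, which matched 21754 genes. Library and cell type measures were compared with two-sided exact permutation tests within backgrounds (63504 arrangements). Scripts were tested on simulated data.

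The genes named were the 8 highest and 8 lowest called log2FC among genes averaging 1 CPM or more with 1 sign in both backgrounds, the 5 higher and 5 lower genes with the smallest p in the GC-corrected fit among those called in both fits, the called extremes of each list (2 in each direction), and a fixed set of 11 genes. Other genes of the lists were named after their values were seen. The members and gene lists were chosen with earlier results of these data known, and the RNA modification list follows the study. Alternatives covered scaling, filters, DESeq2, thresholds, GC and length correction, a replicate block and leaving out each library.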

Additional observations from a re-analysis of the deposited data

Results flagged for a closer look

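Of 156 groups of 5 mice examined (39 measures, 26 of them genes), 16 held a mouse far from the other 4 by Dixon's criterion. Chance flags about 1 in 20 groups where values are normally distributed. The CPM were not tested for this, so that rate may not apply here. Of the genes called with Aroclor 1260, Bcl6 was at 69.7 CPM in HFD + PCB 126 replicate 5 and at 6.41 to 17.9 CPM in the other 4. Replicate 1 of that group was high for Ccr2 (5.67 CPM, the others 1.90 to 2.12) and Mmp12 (6.68 CPM, the others 0.861 to 2.29) and low for Eif4ebp3 (0.567 CPM, the others 2.58 to 3.19). It was also high for Cyp2c55 (3.46 CPM, the others 0.249 to 1.02) and for the summed cholangiocyte markers (125 CPM, the others 64.7 to 75.5), a sum that is mostly Spp1 (mean 77.7 CPM, the other 6 markers 0.111 to 2.05 CPM).

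HFD + PCB 126 replicate 4 was high for Ugt2b38 (59.4 CPM, the others 2.53 to 16.5), Cish (30.9 CPM, the others 3.27 to 11.1) and Cyp1a1 (314 CPM, the others 4.09 to 62.1). Among the exposed mice, Cish was at 39.1 CPM in HFD + Aroclor 1260 replicate 3 (the others 1.83 to 4.40). Selenbp2 was at 118 CPM in HFD + Aroclor 1260 + PCB 126 replicate 2 (the others 16.5 to 44.7), and Cyp1a1 was at 2.62 CPM in replicate 5 of that group (the others 0.792 to 1.19).

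Of the cell type markers, HFD + Aroclor 1260 replicate 2 was high for sinusoidal endothelial cells (299 CPM, the others 165 to 199) and erythroid cells (323 CPM, the others 209 to 234). HFD + Aroclor 1260 + PCB 126 replicate 4 was high for adipocytes (154 CPM, the others 79.3 to 98.2). Skeletal muscle markers reached 59.5 CPM in HFD control replicate 4 (the others 0.725 to 1.46).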

How the results depend on the processing

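The Aroclor 1260 count of 3644 was within 1.5 times under RLE scaling (3707), upper-quartile scaling (3936), DESeq2 (4522) and the filters tried. It was 531 at an adjusted p under 0.01 and 2418 with a log2FC beyond 0.34. It was 362 after GC correction, 255 after GC and length correction, 485 (15 of them higher) with the libraries' GC slopes as a covariate, and 1307 with DESeq2 and GC correction, which was chosen after seeing the data. Leaving out 1 library gave 2284 (without HFD + PCB 126 replicate 3) to 4731, and 0 to 991 after GC correction, so that single libraries limit the corrected calls. The same omission gave 0 to 2 genes for the effect without PCB 126, 4 to 3416 for the effect with PCB 126 and 343 to 1662 for PCB 126. Of the 86 called genes that were named by rank, list or preset choice, 55 were called whichever library was left out. Alkbh3 and Col4a2, for example, were called in 8 of the 20 fits. Without HFD control replicate 4 and HFD + Aroclor 1260 + PCB 126 replicate 4 together, chosen after seeing the data, the effect with PCB 126 gave 1461. The cause of these changes was not tested.

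The PCB 126 count of 776 was 1704 with DESeq2, 235 after GC correction and 282 after GC and length correction. The effect without PCB 126 gave 143 genes with DESeq2 and 500 with the slope covariate. The effect with PCB 126 gave 0 after GC correction, 60 after GC and length correction and 0 with the slope covariate. The difference between backgrounds gave 1 with DESeq2.

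With the replicate number as a block, the Aroclor 1260 count was 3846, of which 3448 were called in the same direction without it. The block gave 26 genes without PCB 126 and 38 for the difference. With GC correction the block gave 477, 250 for PCB 126, 22 without and 172 with PCB 126, and 39 for the difference. Same-numbered mice did not deviate together (r from -0.26 to 0.45, above 0.1 in 4 of 10 pairs, and best with their own number in 4), so the numbers were not taken as pairing the mice.

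List medians moved as follows. The growth hormone list was at -0.35 after GC correction, -0.33 with the block too and -0.28 with length. RNA modification writers were at -0.11, -0.12 and -0.090, and numbered zinc finger genes at -0.055, -0.062 and -0.066. RNA modification readers were at -0.078 with length. With the slope covariate, the CAR and PXR receptors were at 0.13, the AhR list at 0.047, lipogenesis at 0.079, erasers at -0.017, readers at -0.080 and oxidative phosphorylation at 0.023.

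Some log2FC of single genes reversed. After GC correction Cp was at -0.018, Col4a2 at 0.063 and Dkc1 at -0.0058, with the block at -0.016, 0.068 and -0.0070, and with DESeq2 at -0.018, 0.065 and -0.0062. With length, Gclm was at -0.031 and Cp at -0.047. With the slope covariate, Rxra was at 0.028, Taldo1 at 0.17, Acaa1a at 0.087, Nr1h3 at 0.12, Tm7sf2 at 0.15, Fgfr4 at 0.069, Hras at 0.044, Nr1d1 at 0.051, Cp at -0.075, Pus10 at -0.027, Dkc1 at -0.037, Ndufb7 at 0.096 and Cyp1a1 at 0.22. The hepatocyte markers, higher in summed CPM, were lower as a mean of log2 CPM (-0.18).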
